A study of Mus musculus with 20 samples.

Results

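The lymph node draining the jejunum was compared with the node draining the cecum and colon in 9-week-old Rag1-/- mice of the strain B6.129S7-Rag1tm1Mom/J, in which mature T and B cells do not form. The comparison used 8 of the 20 bulk polyA RNA-seq libraries of the study, 4 from jejunal nodes and 4 from ceco-colonic nodes, chosen by their labels. The other 12 libraries came in groups of 4 from duodenal, ileal and inguinal nodes of mice of the same genotype and age, the inguinal node being the skin-draining reference outside the gut. No group with an intact Rag1 gene was analysed here, and the labels give no treatment beyond the genotype. Libraries of a position are numbered in the labels without a statement that each came from its own animal. The p-values therefore reflect library-to-library spread alone, which may be technical.

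The nodes of the mesenteric chain are each fed by the lymph of a stretch of gut. Lymph of the small intestine carries absorbed dietary fat, vitamin A and other diet-derived compounds, whereas lymph of the cecum and colon drains the part of the gut with the densest bacterial community. A node is built on reticular fibroblasts, blood and lymphatic endothelium and sinus macrophages. In the absence of T and B cells these stromal cells, together with dendritic cells and innate lymphocytes, make up a larger part of the tissue. Fibroblasts of different body positions are known to keep a record of their origin in Hox and other positional transcription factors.

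Levels are given as CPM, counts per M estimated counts after TMM scaling, and fold changes as log2 of jejunal over ceco-colonic levels with their standard error (SE). A gene was called at an adjusted p under 0.05 by the quasi-likelihood test of edgeR, the p-values being Benjamini-Hochberg adjusted over all 29411 genes tested. Of these, 3586 genes (12.2%) were called. Higher levels in jejunal nodes were called for 2099 genes (7.14%) and lower levels for 1487 genes (5.06%). A difference of at least 2-fold was called for 638 genes higher and 376 genes lower in jejunal nodes. The libraries of the groups did not overlap for 4663 of the genes tested (15.9%), among them 1848 of the genes called higher and 1323 of those called lower. The median log2 fold change of all genes tested was 0.0007. The first principal component of the 8 libraries held 32.8% of the variance and had all 4 jejunal libraries on one side and all 4 ceco-colonic libraries on the other.

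Jejunal library 2 stood apart from the other jejunal libraries in its fat-cell transcripts. The summed level of 18 adipocyte genes was 1429.5, 3835, 1275 and 1314 CPM in jejunal libraries 1 to 4, against 851, 440.4, 728 and 567 CPM in the ceco-colonic libraries. The adipocyte sum was thus higher in every jejunal library than in any ceco-colonic library and moved with the comparison itself. With this sum as a covariate, 759 genes were called higher and 568 lower, and 253 genes were called at least 2-fold higher and 259 at least 2-fold lower. Without jejunal library 2, 1548 genes were called higher and 1117 lower. Of the 122 called genes whose values are given here, 98 kept the call and the direction under all 16 alternatives, and the genes that lost the call with the adipocyte covariate are named where they are described. Some genes lost the call but kept most of the log2 fold change, such as Ccl17 (-1.05 without and -0.96 with the covariate), Apol7c (0.41 and 0.40) and Hoxa4 (0.73 and 0.60). For others it shrank or changed sign, such as Ccl21a (-0.75 and -0.13) and Car3 (2.53 and -0.06). Car3 is itself part of the adipocyte sum, so its change follows from the fit. The part that fat attached to the nodes plays in the other results was not tested beyond this fit. In whole nodes, fewer cells of a type and less RNA per cell cannot be told apart.

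**Figure D1:**
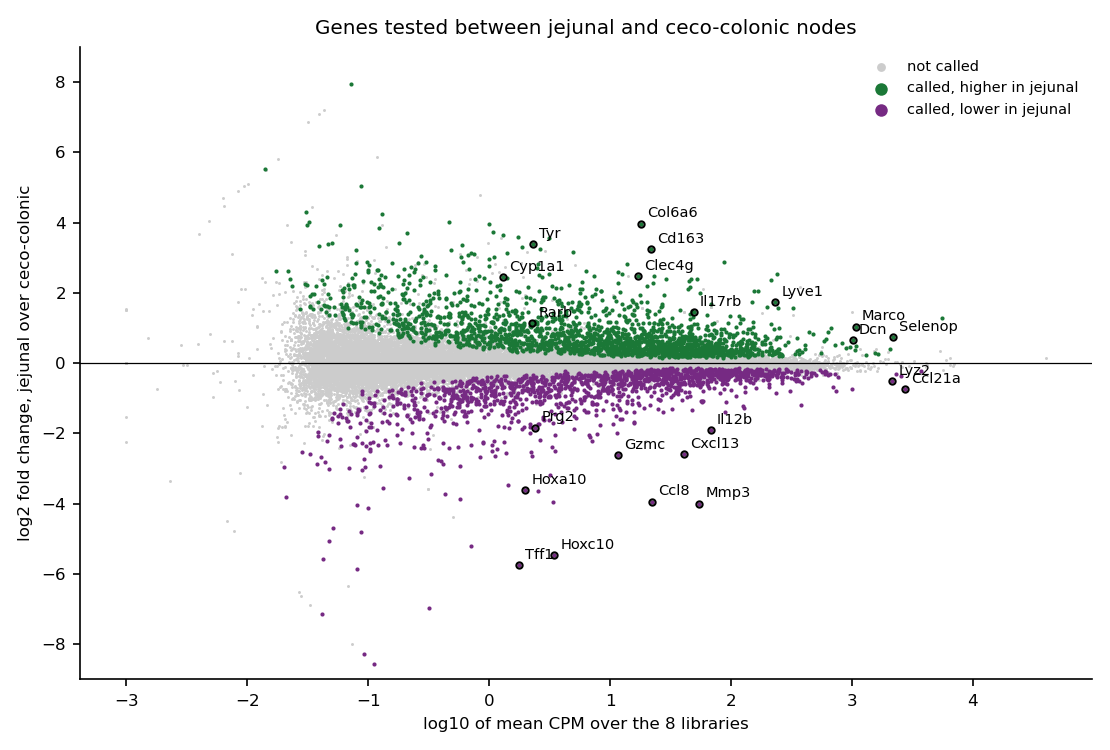
Each point is a gene tested, with the log10 mean CPM over the 8 libraries on the horizontal axis and the log2 fold change of jejunal over ceco-colonic nodes on the vertical axis; the 2099 genes called higher are green, the 1487 called lower are purple, the rest grey, and circled genes are named. Among the circled genes, Hoxc10 and Tff1 lie lowest (log2 fold changes -5.47 and -5.76) and Col6a6 lies highest (3.97).

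Posterior Hox genes were lower in jejunal nodes. Hox genes encode homeodomain proteins laid out along the body axis, and those of the posterior groups mark the hind part of the embryo. Hoxc10 had 0.0762, 0.271, 0.147 and 0.121 CPM in the jejunal libraries, against 6.7, 7.4, 6.42 and 6.4 CPM in the ceco-colonic libraries. Every ceco-colonic library lay far above every jejunal one, and the log2 fold change was -5.47 (SE 0.42, adjusted p = 3.78e-08). Hoxa10 had 0.301, 0.232, 0.384 and 0.278 CPM in jejunal and 3.63, 4.47, 3.3 and 3.33 CPM in ceco-colonic libraries, again without overlap (log2 fold change -3.62, SE 0.184, adjusted p = 3.94e-10). Hoxa9 averaged 1.05 ± 0.18 CPM in jejunal and 5.56 ± 0.468 CPM in ceco-colonic nodes (SD, n = 4 each; log2 fold change -2.40, adjusted p = 4.59e-09). Hoxd11 averaged 0.0362 ± 0.0125 CPM in jejunal and 1.39 ± 0.403 CPM in ceco-colonic nodes, and its log2 fold change was -5.22 (SE 0.375, adjusted p = 1.82e-08). Among 16 posterior Hox genes, 3 were at 0 in all 8 libraries and 9 were tested, of which 6 were called lower, 0 higher, with a median log2 fold change of -2.4. The same 6 calls were counted with the adipocyte covariate.

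Several Hox genes of the central and anterior groups were higher in jejunal nodes, by smaller amounts. Of 8 central genes tested, 4 were called higher and 1 lower in jejunal nodes (median log2 fold change 0.22). Hoxc8 averaged 11.9 ± 1.52 CPM in jejunal and 6.48 ± 0.332 CPM in ceco-colonic nodes (log2 fold change 0.88, SE 0.108, adjusted p = 1.04e-05), with jejunal library 2 the highest of its group. Hoxb8 averaged 5.8 ± 0.914 CPM in jejunal and 3.17 ± 0.316 CPM in ceco-colonic nodes (log2 fold change 0.87, adjusted p = 8.44e-05). Of 14 anterior genes tested, 5 were called higher and 2 lower, with a median of -0.08, and 2 were called higher with the adipocyte covariate. Hoxa4 averaged 1.25 ± 0.168 CPM in jejunal and 0.752 ± 0.0572 CPM in ceco-colonic nodes (log2 fold change 0.73, adjusted p = 0.0014). Its call was lost with the adipocyte covariate (log2 fold change 0.60, adjusted p = 0.0797). Hoxc4 averaged 7.03 ± 0.406 CPM in jejunal and 4.81 ± 0.552 CPM in ceco-colonic nodes (log2 fold change 0.55, adjusted p = 1.60e-04).

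Across the 5 positions, Hoxc10, Hoxa10 and Hoxa9 were lowest on average in the duodenal node and highest among the gut nodes in the ceco-colonic node. The Hoxc10 level was 0.0236 ± 0.0331 CPM for duodenal nodes, 0.154 ± 0.0835 for jejunal nodes, 1.17 ± 0.453 for ileal nodes, 6.73 ± 0.468 for ceco-colonic nodes and 6.78 ± 0.371 for inguinal nodes (SD, n = 4 each). The libraries of neighbouring gut positions did not overlap for Hoxc10, although the duodenal and jejunal ones nearly met, while the ceco-colonic and inguinal levels differed by less than their spread. The Hoxa9 level was 0.39 ± 0.0694 CPM for duodenal nodes, 1.05 ± 0.18 for jejunal nodes, 1.91 ± 0.175 for ileal nodes, 5.56 ± 0.468 for ceco-colonic nodes and 2.41 ± 0.455 for inguinal nodes. Hoxa4 ran in the opposite order along the gut, with 1.92 ± 0.265 CPM for duodenal nodes, 1.25 ± 0.168 for jejunal nodes, 0.885 ± 0.112 for ileal nodes and 0.752 ± 0.0572 for ceco-colonic nodes; the ileal and ceco-colonic libraries overlapped. In the comparison of duodenal with ileal nodes, whose levels come from other libraries but whose dispersions come from the same model of all 20, Hoxc10 had a log2 fold change of -5.49 (adjusted p = 4.75e-06), Hoxa9 of -2.29 (adjusted p = 1.11e-07) and Hoxa4 of 1.12 (adjusted p = 1.24e-04).

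**Figure D2:**
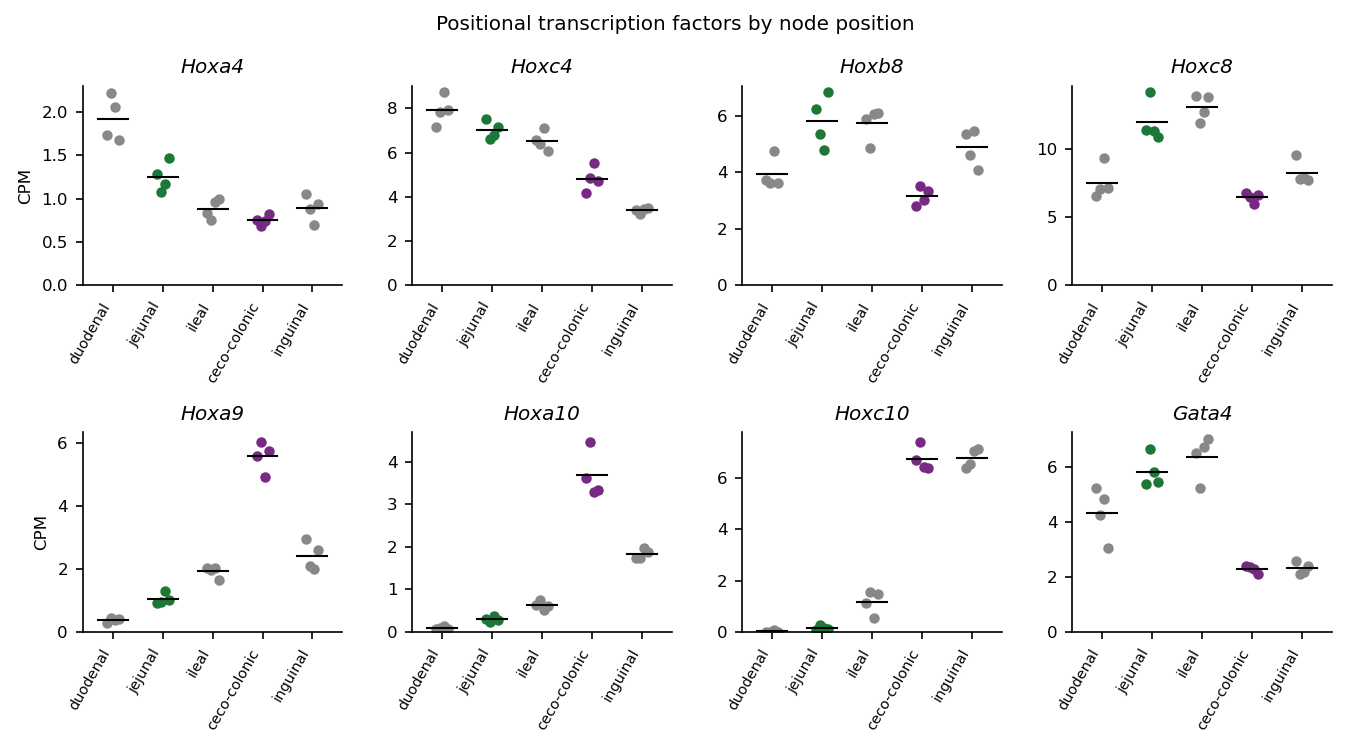
Level in CPM of 7 Hox genes and Gata4 in each library (points) with the mean of each position (line), in gut order from duodenal to ceco-colonic nodes and then inguinal nodes; jejunal libraries are green and ceco-colonic libraries purple. Hoxa9, Hoxa10 and Hoxc10 are highest among gut nodes in the ceco-colonic node, where Hoxa10 averages 3.68 CPM against 0.299 CPM in the jejunal node, and Gata4 is lower there than in any other gut node.

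Other transcription factors of the mesenchyme also separated the nodes. Gata4, a zinc-finger factor of the upper gut and its mesoderm, had 5.37, 6.62, 5.79 and 5.43 CPM in jejunal libraries, against 2.4, 2.36, 2.3 and 2.11 CPM in ceco-colonic libraries. The groups did not overlap and the log2 fold change was 1.34 (SE 0.136, adjusted p = 1.06e-06). Meis2, a cofactor of Hox proteins, averaged 30.9 ± 3.9 CPM in jejunal and 18.3 ± 2.08 CPM in ceco-colonic nodes (log2 fold change 0.75, adjusted p = 1.33e-04). The Iroquois factor Irx1 had 0.444, 0.242, 0.313 and 0.647 CPM in jejunal libraries and 6.08, 5.38, 7.65 and 6.2 CPM in ceco-colonic libraries (log2 fold change -3.95, SE 0.269, adjusted p = 1.11e-08). The groups did not overlap for Irx1. The T-box factor Tbx18 averaged 0.316 ± 0.0522 CPM in jejunal and 1.81 ± 0.162 CPM in ceco-colonic nodes (log2 fold change -2.51, adjusted p = 2.69e-06). Among 28 regional factors tested, 9 were called higher and 2 lower, with a median of 0.19, and with the adipocyte covariate 5 were called higher. Nkx2-3, a homeobox gene of gut and gut-associated vessels, averaged 21.7 ± 1.84 CPM in jejunal and 22.2 ± 0.52 CPM in ceco-colonic nodes, and its log2 fold change of -0.03 (SE 0.106) was not called (adjusted p = 0.924). Its level in inguinal nodes was 0.0344 ± 0.0162 CPM.

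Several genes of retinoid handling were higher in jejunal nodes; Aldh1a2, an enzyme that makes retinoic acid, was not called. Dietary vitamin A is stored as retinyl ester, oxidised to retinal and then to retinoic acid, which binds nuclear receptors that sit on paired short DNA elements. Aldh1a2, a retinal dehydrogenase of dendritic cells and stroma, had 153, 182, 143 and 207 CPM in jejunal libraries, against 167, 169.8, 153 and 187 CPM in ceco-colonic libraries. The groups overlapped, and the log2 fold change of 0.02 (SE 0.146) was not called (adjusted p = 0.972). Dhrs3, which reduces retinal back to retinol and is induced by retinoic acid, had 80.6, 83.8, 75.7 and 97.9 CPM in jejunal libraries, against 42.4, 41.1, 44.5 and 47.2 CPM in ceco-colonic libraries. It was higher in every jejunal library (log2 fold change 0.95, SE 0.0944, adjusted p = 8.61e-07). Lrat, which makes retinyl esters, averaged 17.4 ± 4.65 CPM in jejunal and 9.04 ± 1.87 CPM in ceco-colonic nodes (log2 fold change 0.95, adjusted p = 0.0013). Aldh1a1, another retinal dehydrogenase, averaged 16.9 ± 5.36 CPM in jejunal and 4.58 ± 1.13 CPM in ceco-colonic nodes (log2 fold change 1.88, adjusted p = 3.50e-05).

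The retinoic acid receptor gene Rarb is itself a classical target of retinoic acid. Rarb had 2.64, 3.81, 2.95 and 3.06 CPM in jejunal libraries, against 1.48, 0.844, 1.81 and 1.52 CPM in ceco-colonic libraries. Every jejunal library was above every ceco-colonic one (log2 fold change 1.13, SE 0.211, adjusted p = 8.58e-04), and the call was lost with the adipocyte covariate (log2 fold change 0.86, adjusted p = 0.087). Tgm2, a transglutaminase that responds to retinoic acid, averaged 711 ± 67.2 CPM in jejunal and 457 ± 54.1 CPM in ceco-colonic nodes (log2 fold change 0.64, adjusted p = 8.08e-04). Rbp4, the carrier of retinol in blood, had 6.97, 19.7, 5.69 and 6.96 CPM in jejunal libraries, against 3.35, 0.6, 2.11 and 1.89 CPM in ceco-colonic libraries. Its call (log2 fold change 2.30, adjusted p = 0.0256) was lost without jejunal library 2 (adjusted p = 0.125), without ceco-colonic library 2, 3 or 4 (0.0832, 0.056 and 0.0713), and with the adipocyte covariate (log2 fold change -0.06). Of 15 genes of retinoid synthesis, storage and transport tested, 6 were called higher and 1, Stra6, lower (median log2 fold change 0.45). Of 16 receptor, response and degradation genes tested, 6 were called higher and 2, Crabp2 and Rara, lower (median 0.08). Dhrs3 is counted in both lists. With the adipocyte covariate 4 and 2 genes of these lists were called higher.

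The Rarb promoter is shown because it carries a motif that is rare among promoters and bound by the receptor of the pathway described. The promoter spans 250 bases before to 50 after the gene's start, at chr14:16575427-16575726 on the minus strand (RefSeq, GRCm38.p6), and is read from 5′ to 3′ on the gene's strand; capitals mark a pair of receptor elements 5 bases apart.
Rarb: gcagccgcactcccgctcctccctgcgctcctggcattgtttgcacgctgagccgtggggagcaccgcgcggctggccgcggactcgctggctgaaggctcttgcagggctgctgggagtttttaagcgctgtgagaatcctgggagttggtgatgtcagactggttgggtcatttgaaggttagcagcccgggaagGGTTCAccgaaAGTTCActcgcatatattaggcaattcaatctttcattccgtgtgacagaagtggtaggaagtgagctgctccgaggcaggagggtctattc
The elements searched were AGGTCA as the first, the variant AGTTCA as the second, the variant GGGTCA as the third and the variant GGTTCA as the fourth, in any pair of the same direction with 5 bases between them, on both strands. The Rarb match runs from base -53 to base -37 relative to the start. Such a pair was found in 32 of all 32851 promoters of that length (0.0974%). Of the 14 receptor, response and degradation genes with a promoter in the table, 2 held it, Rarb and Cyp26a1, and 0 of 13 synthesis, storage and transport genes did. Cyp26a1 was not among the genes called. A match describes letters in a window and not a site in use.

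Several targets of the aryl hydrocarbon receptor were higher in jejunal nodes. This receptor senses dietary and microbial indoles and other ring compounds, and the cytochrome genes Cyp1a1 and Cyp1b1 are its best-known targets. Cyp1a1 had 2.7, 2.4, 1.92 and 1.83 CPM in jejunal libraries, against 0.432, 0.624, 0.237 and 0.357 CPM in ceco-colonic libraries. Cyp1b1 had 287, 322, 331 and 262 CPM in jejunal libraries, against 108, 97.4, 98 and 89.9 CPM in ceco-colonic libraries. Neither gene overlapped between the groups. The log2 fold change was 2.44 (SE 0.257, adjusted p = 1.69e-06) for Cyp1a1 and 1.61 (SE 0.109, adjusted p = 9.97e-09) for Cyp1b1. Nqo1, a quinone reductase, averaged 6.47 ± 0.854 CPM in jejunal and 3.42 ± 0.209 CPM in ceco-colonic nodes (log2 fold change 0.92, adjusted p = 1.09e-05). Ahr itself averaged 60.2 ± 5.55 CPM in jejunal and 49.3 ± 1.01 CPM in ceco-colonic nodes, a smaller difference (log2 fold change 0.29, SE 0.06, adjusted p = 0.00231). Of 10 genes of the receptor and its targets tested, 5 were called higher and 0 lower, with a median of 0.33, and 4 were called higher with the adipocyte covariate.

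The promoters of the 2 cytochrome genes are shown with the core letters GCGTG, to which the receptor and its partner bind, in capitals (RefSeq, GRCm38.p6, 5′ to 3′ on the gene's strand).
Cyp1a1, chr9:57697363-57697662, plus strand: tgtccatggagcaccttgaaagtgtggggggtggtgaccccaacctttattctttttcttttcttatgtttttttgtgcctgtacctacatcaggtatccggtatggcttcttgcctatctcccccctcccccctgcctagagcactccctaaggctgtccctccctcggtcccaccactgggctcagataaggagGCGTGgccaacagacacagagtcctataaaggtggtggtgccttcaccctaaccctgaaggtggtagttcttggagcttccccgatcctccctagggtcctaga
Cyp1b1, chr17:79715012-79715311, minus strand: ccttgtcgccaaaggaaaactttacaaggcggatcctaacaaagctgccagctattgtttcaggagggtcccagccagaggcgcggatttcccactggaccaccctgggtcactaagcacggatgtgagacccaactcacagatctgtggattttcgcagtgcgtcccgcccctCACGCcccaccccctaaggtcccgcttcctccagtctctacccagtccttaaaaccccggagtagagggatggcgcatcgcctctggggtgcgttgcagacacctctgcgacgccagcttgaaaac
In Cyp1a1 the letters stand on the gene's own strand from base -54 to -50, and in Cyp1b1 on the opposite strand from base -76 to -72. These letters are common: 10639 of 32851 promoters (32.4%) held them on either strand, as did 5 of the 9 genes of this list with a promoter in the table.

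Most genes of lymphatic endothelium and of the sinuses were higher in jejunal nodes. Lymph enters a node through sinuses lined by lymphatic endothelium and macrophages, which take up lipoproteins, debris and particles. Of 20 such genes tested, 13 were called higher and 2 lower, with a median log2 fold change of 0.9, and with the adipocyte covariate 11 were called higher. Clec4g, a lectin of sinus endothelium, had 27, 32.7, 27 and 27.6 CPM in jejunal libraries, against 6.84, 4.69, 5.39 and 3.76 CPM in ceco-colonic libraries. All jejunal libraries lay well above all ceco-colonic ones, with jejunal library 2 the highest (log2 fold change 2.47, SE 0.159, adjusted p = 5.55e-09). Lyve1, the hyaluronan receptor of lymphatic endothelium and some macrophages, had 302, 395, 405 and 329 CPM in jejunal libraries, against 124, 109, 125 and 73.9 CPM in ceco-colonic libraries. The groups were apart (log2 fold change 1.73, SE 0.185, adjusted p = 1.97e-06). Reln, a secreted protein of lymphatic endothelium, averaged 40.0 ± 9.18 CPM in jejunal and 13.1 ± 2.91 CPM in ceco-colonic nodes (log2 fold change 1.60, adjusted p = 3.48e-05). Marco, a scavenger receptor of sinus macrophages and sinus endothelium, averaged 1451 ± 91 CPM in jejunal and 704 ± 83.6 CPM in ceco-colonic nodes (log2 fold change 1.04, adjusted p = 1.16e-05). Flt4 and Prox1, which define lymphatic endothelium, and Stab1 and Stab2 were among those called higher. The 2 called lower, Ccl21a and Madcam1, are made by reticular cells and venules as well.

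Of 16 blood endothelial genes tested, 6 were called higher and 1 lower, with a median of 0.13. Cldn5, a tight-junction protein, averaged 148 ± 15.2 CPM in jejunal and 71.7 ± 7.65 CPM in ceco-colonic nodes (log2 fold change 1.04, adjusted p = 8.32e-06), and Kdr, a receptor for vascular growth factor that lymphatic endothelium shares, averaged 301 ± 30.3 and 179 ± 12 CPM in the same order (log2 fold change 0.75, adjusted p = 9.29e-06). The water channel Aqp1 averaged 159.8 ± 24 CPM in jejunal and 254 ± 19.4 CPM in ceco-colonic nodes (log2 fold change -0.67, adjusted p = 9.36e-05). The list of high endothelial venules, through which lymphocytes enter, held 15 genes. Of these, 1 was called higher and 2 lower (median -0.07), beside 7.14% and 5.06% over all genes tested. The one called higher was the sialyltransferase St3gal6, at 47.9 ± 3.31 CPM in jejunal and 32.4 ± 0.987 CPM in ceco-colonic nodes (log2 fold change 0.56, adjusted p = 2.05e-06). Madcam1, the vascular ligand of the gut-homing integrin, had 53, 33.3, 54.5 and 55.6 CPM in jejunal libraries, against 120.0, 144, 137 and 110.4 CPM in ceco-colonic libraries. It was lower in every jejunal library (log2 fold change -1.38, SE 0.185, adjusted p = 2.80e-05), with jejunal library 2 the lowest. The sulfotransferase Chst2 averaged 44.3 ± 10.1 CPM in jejunal and 64.9 ± 3.16 CPM in ceco-colonic nodes (log2 fold change -0.55, adjusted p = 0.00523), and that call was lost with the adipocyte covariate (adjusted p = 0.52).

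Several chemokines and other genes of the reticular network were lower in jejunal nodes. Cxcl13, which draws B cells into follicles and innate lymphoid cells to the node, had 19.7, 4.68, 12.4 and 9.15 CPM in jejunal libraries, against 53.5, 83.5, 65.6 and 77.7 CPM in ceco-colonic libraries. The groups did not overlap (log2 fold change -2.60, SE 0.306, adjusted p = 6.23e-06). Ccl21a, the T-zone chemokine, had 2069, 1172, 2187 and 2743 CPM in jejunal libraries, against 3283, 3959.6, 3233 and 3303 CPM in ceco-colonic libraries. Its call (log2 fold change -0.75, SE 0.207, adjusted p = 0.0192) was lost without jejunal library 2 (adjusted p = 0.0591), without ceco-colonic library 2 (adjusted p = 0.0683) and with the adipocyte covariate (adjusted p = 0.83). Grem1, a BMP antagonist of T-zone reticular cells, averaged 75.5 ± 19.9 CPM in jejunal and 176 ± 19.3 CPM in ceco-colonic nodes (log2 fold change -1.22, adjusted p = 6.14e-05), with jejunal library 2 the lowest at 45.8 CPM. Tnfsf13b, the B-cell survival factor BAFF, averaged 37.4 ± 4.23 CPM in jejunal and 78.8 ± 8.9 CPM in ceco-colonic nodes (log2 fold change -1.08, adjusted p = 2.60e-07). Coch, a follicular dendritic cell gene, averaged 7.48 ± 0.42 and 24 ± 6.14 CPM in jejunal and ceco-colonic nodes (log2 fold change -1.68, adjusted p = 5.75e-05). Of 11 T-zone reticular genes tested, 5 were called lower and 0 higher (median -0.34), 3 without jejunal library 2, and with the adipocyte covariate 1 was called lower and 1 higher. Of 11 follicular and marginal reticular genes tested, 5 were called lower and 1 higher (median -0.5), and 5 were called lower with the covariate.

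Medullary reticular and perivascular genes divided. Of 14 medullary reticular genes tested, 3 were called higher and 3 lower, with a median of 0.08. Inmt, a methyltransferase of medullary reticular cells, had 179.8, 179, 151 and 171 CPM in jejunal libraries, against 93.7, 47.5, 74.3 and 67.4 CPM in ceco-colonic libraries. It was higher in every jejunal library (log2 fold change 1.26, SE 0.196, adjusted p = 1.45e-04). Mgp, an inhibitor of calcification, averaged 75.2 ± 13.1 CPM in jejunal and 183 ± 8.93 CPM in ceco-colonic nodes (log2 fold change -1.28, adjusted p = 7.14e-04). Il33, an alarmin of reticular nuclei, averaged 344 ± 43.5 CPM in jejunal and 307 ± 27.2 CPM in ceco-colonic nodes, with overlapping libraries and no call (log2 fold change 0.17, SE 0.105, adjusted p = 0.394). Rgs5, a pericyte gene, averaged 232 ± 29.2 CPM in jejunal and 531 ± 75.2 CPM in ceco-colonic nodes (log2 fold change -1.20, adjusted p = 2.01e-07). Of 18 adventitial and perivascular genes tested, 5 were called higher and 2 lower (median 0.29), and with the adipocyte covariate 2 were called higher and 1 lower. Without jejunal library 2 or 3, or without ceco-colonic library 1, 2 or 4, 3 of them were called higher.

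The matrix differed in a few genes by a large factor. Col6a6, a chain of the microfibrillar collagen VI, had 31.5, 47.1, 28.9 and 28.5 CPM in jejunal libraries, against 2.48, 1.77, 2.42 and 1.98 CPM in ceco-colonic libraries. This was a fold change of 15.7 (log2 fold change 3.97, SE 0.202, adjusted p = 3.94e-10), with jejunal library 2 the highest. The ceco-colonic node stood lowest of the 5 positions for Col6a6, whose levels were 26.6 ± 6.82 CPM in duodenal, 31.3 ± 5.88 in ileal and 38 ± 2.49 in inguinal nodes. Col4a5 and Col4a6, basement-membrane chains encoded side by side, averaged 12.4 ± 3.49 and 3.2 ± 1.18 CPM in jejunal nodes, against 2.21 ± 0.447 and 0.267 ± 0.093 CPM in ceco-colonic nodes (log2 fold changes 2.49 and 3.58, adjusted p = 2.19e-05 and 4.07e-05). Postn, the matricellular protein periostin, had 406, 396, 357 and 304 CPM in jejunal libraries, against 130.0, 119.6, 118 and 125 CPM in ceco-colonic libraries. Its groups did not overlap (log2 fold change 1.57, SE 0.0959, adjusted p = 4.43e-09). The proteoglycan Dcn averaged 1238 ± 126 CPM in jejunal and 788 ± 59.8 CPM in ceco-colonic nodes (log2 fold change 0.65, adjusted p = 2.68e-05). Ogn, Fbln1 and Mfap5, a proteoglycan and 2 fibre proteins, were called higher with log2 fold changes of 1.61, 1.51 and 1.46, and each lost the call with the adipocyte covariate (adjusted p = 0.112, 0.316 and 0.713).

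Matrix genes that were lower in jejunal nodes were led by a protease. Mmp3, or stromelysin, had 5.23, 8.07, 4.59 and 7.99 CPM in jejunal libraries, against 102, 141, 73.7 and 96.8 CPM in ceco-colonic libraries. The lowest ceco-colonic library was far above the highest jejunal one (16-fold lower in jejunal nodes, SE of the log2 fold change 0.384, adjusted p = 5.51e-07). P4ha3, a subunit of the collagen prolyl hydroxylase, averaged 0.627 ± 0.271 CPM in jejunal and 5.72 ± 0.367 CPM in ceco-colonic nodes (log2 fold change -3.20, adjusted p = 3.77e-08). Col24a1, a fibrillar collagen, averaged 1.04 ± 0.231 CPM in jejunal and 5.95 ± 0.64 CPM in ceco-colonic nodes (log2 fold change -2.51, adjusted p = 1.41e-06). Over the lists, 7 of 23 collagen genes tested were called higher and 1 lower (median -0.06), and 10 of 27 glycoprotein, elastic fibre and proteoglycan genes were called higher and 2 lower (median 0.25). With the adipocyte covariate, 3 collagen genes and 3 of the glycoprotein list were called higher. Without jejunal library 2, or without ceco-colonic library 1, 2 or 4, 4 collagen genes were called higher, and without ceco-colonic library 4, 6 of the glycoprotein list.

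Wnt and BMP modulators, which set the niche signals of the gut wall and of its mesenchyme, were called higher in jejunal nodes for 13 of 29 genes tested and lower for 4 (median 0.42). With the adipocyte covariate 6 were called higher and 3 lower. Rspo3, an R-spondin that amplifies Wnt signals, had 12.1, 11.4, 9.65 and 10.6 CPM in jejunal libraries, against 4.41, 4.37, 4.13 and 4.07 CPM in ceco-colonic libraries. The spread within each group was small beside the gap (log2 fold change 1.37, SE 0.103, adjusted p = 3.01e-08). Sfrp1, a secreted Wnt antagonist, averaged 38.9 ± 4.39 CPM in jejunal and 16.3 ± 1.44 CPM in ceco-colonic nodes (log2 fold change 1.25, adjusted p = 9.97e-07). Sfrp5 of the same family had 3.65, 8.83, 2.23 and 3.18 CPM in jejunal libraries, against 0.853, 0.172, 1.17 and 0.31 CPM in ceco-colonic libraries. Its call (log2 fold change 2.82, adjusted p = 0.0269) was lost without jejunal library 2 (adjusted p = 0.108), without ceco-colonic library 1, 2 or 4 (0.0517, 0.0879 and 0.0917), with limma-voom (0.0636), with the replicate block (0.0564) and with the adipocyte covariate (adjusted p = 0.71). In the other direction, the ligand Bmp5 averaged 1.01 ± 0.0582 CPM in jejunal and 3.37 ± 0.257 CPM in ceco-colonic nodes (log2 fold change -1.74, adjusted p = 4.52e-06), and the antagonist Sostdc1 averaged 0.709 ± 0.435 CPM in jejunal and 2.31 ± 0.351 CPM in ceco-colonic nodes (log2 fold change -1.69, adjusted p = 0.0043).

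**Figure D3:**
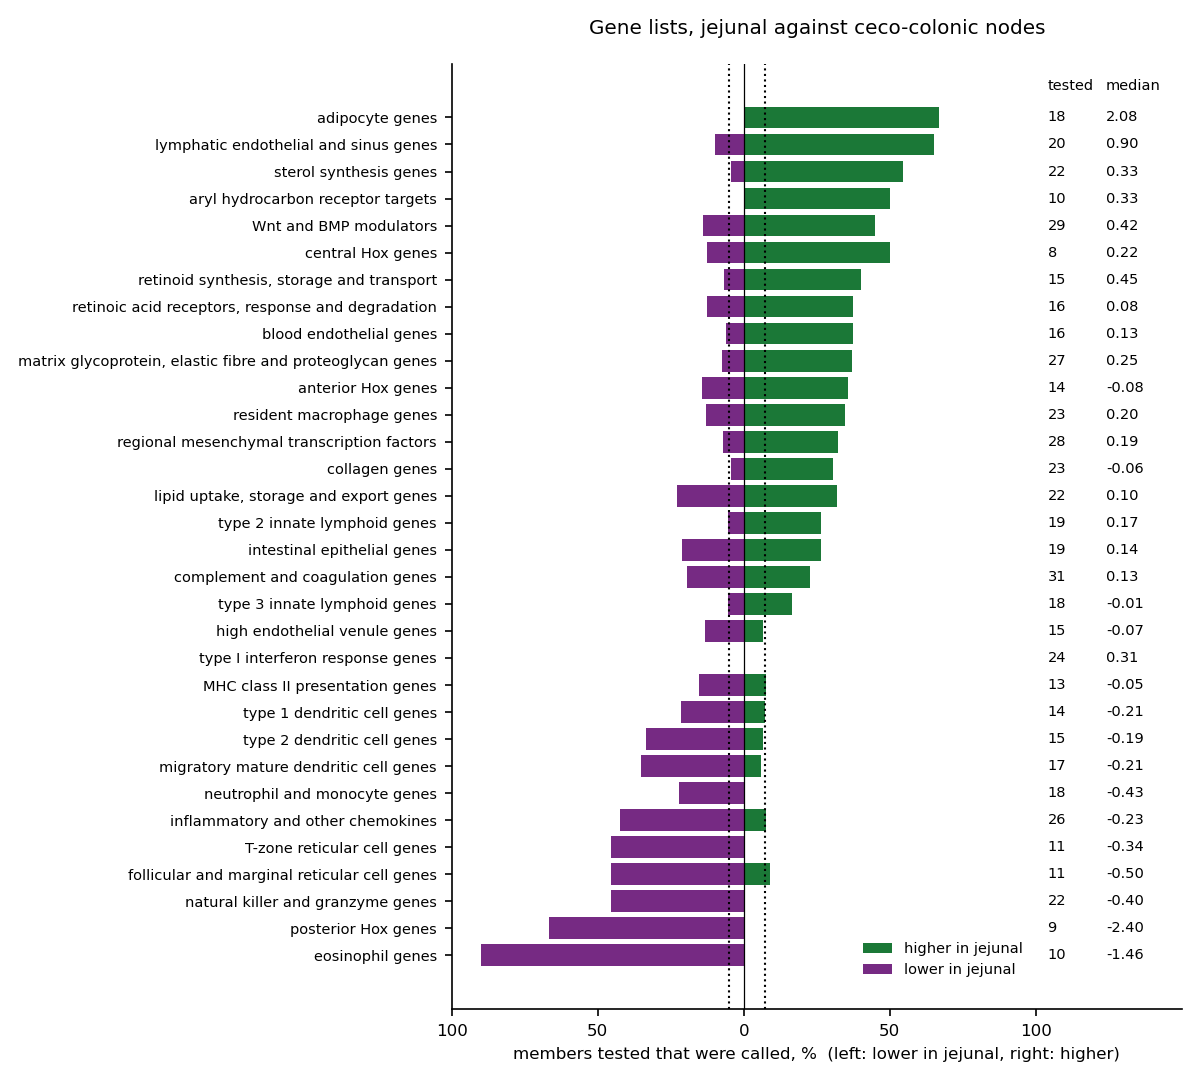
Percentage of the tested members of 32 gene lists that were called higher (green, right) or lower (purple, left) in jejunal than in ceco-colonic nodes, with the number tested and the median log2 fold change of each list at the right; dotted lines mark the percentages over all genes tested, 7.14% higher and 5.06% lower. Adipocyte, lymphatic and sterol genes extend furthest to the right, and eosinophil genes (9 of 10 lower) and posterior Hox genes (6 of 9 lower) furthest to the left.

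Resident macrophage genes were called in both directions. Of 23 such genes tested, 8 were called higher and 3 lower (median 0.2), and their summed level was 6539 to 7633 CPM in jejunal and 4558 to 5573 CPM in ceco-colonic libraries. Cd163, the scavenger receptor for hemoglobin with haptoglobin, had 36.3, 62.1, 32.6 and 25.7 CPM in jejunal libraries, against 5.91, 3.14, 4.3 and 3.26 CPM in ceco-colonic libraries. The groups were clearly apart (log2 fold change 3.24, SE 0.266, adjusted p = 7.87e-08). Cd209f, a lectin of the same gene cluster as several near relatives, averaged 8.7 ± 3.38 CPM in jejunal and 2.73 ± 0.806 CPM in ceco-colonic nodes (log2 fold change 1.68, adjusted p = 1.86e-04), with jejunal library 2 far above the others at 13.7 CPM. Folr2, a folate receptor of macrophages, averaged 6.86 ± 0.696 CPM in jejunal and 15.8 ± 1.1 CPM in ceco-colonic nodes (log2 fold change -1.20, adjusted p = 5.10e-05). The plasma selenium carrier Selenop had 2687, 3079, 2751 and 2318 CPM in jejunal libraries, against 1832, 1674, 1532 and 1482 CPM in ceco-colonic libraries. It was the gene with the largest rise in mean level by the rule used here (log2 fold change 0.73, SE 0.105, adjusted p = 6.41e-05). Lyz2, the lysozyme of macrophages and neutrophils, had 2018, 1172, 1968 and 1939 CPM in jejunal libraries, against 2749, 2599, 2186 and 2666 CPM in ceco-colonic libraries. Its call (log2 fold change -0.52, adjusted p = 0.00864) was lost in a fit of the 8 libraries alone (adjusted p = 0.0555) and with the adipocyte covariate (adjusted p = 0.511).

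Sterol synthesis genes that were called were mostly higher in jejunal nodes, as were adipocyte genes, while lipid handling genes divided. Msr1, a scavenger receptor for modified lipoproteins, averaged 116 ± 10.7 CPM in jejunal and 59 ± 4.15 CPM in ceco-colonic nodes (log2 fold change 0.97, adjusted p = 8.44e-06). Trem2, a lipid receptor of macrophages, averaged 8.88 ± 1.86 CPM in jejunal and 18.8 ± 1.29 CPM in ceco-colonic nodes (log2 fold change -1.09, adjusted p = 1.03e-05). Of 22 genes of lipid uptake, storage and export tested, 7 were called higher and 5 lower (median 0.1). With the adipocyte covariate 4 were called higher and 2 lower, and without jejunal library 2, 4 were called higher. Of 22 sterol synthesis genes tested, 12 were called higher and 1 lower (median 0.33), 8 higher without jejunal library 2 and 4 higher with the covariate. Insig1, the sterol sensor, averaged 45.8 ± 9.28 CPM in jejunal and 27.9 ± 1.02 CPM in ceco-colonic nodes (log2 fold change 0.72, adjusted p = 0.00266), with jejunal library 2 apart at 59.7 CPM and the call lost with the covariate (adjusted p = 0.432). Fasn, the fatty acid synthase, had 412, 880.3, 291 and 378 CPM in jejunal libraries, against 194, 118, 200.1 and 148 CPM in ceco-colonic libraries. Its call (adjusted p = 0.0416) was lost in 8 of the 16 alternatives, and its log2 fold change of 1.57 became -0.20 with the covariate.

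Among chemokines, 11 of 26 inflammatory and other chemokine genes tested were called lower in jejunal nodes and 2 higher (median -0.23), and with the adipocyte covariate 7 were called lower and 3 higher. Ccl8, a ligand that attracts monocytes and type 2 lymphocytes, had 2.85, 3.12, 2.19 and 2.57 CPM in jejunal libraries, against 42.3, 52.1, 22.4 and 49.5 CPM in ceco-colonic libraries. Even the lowest ceco-colonic library was well above all jejunal ones (log2 fold change -3.95, SE 0.288, adjusted p = 2.10e-08). Ccl12, a ligand of the monocyte receptor Ccr2, averaged 6.33 ± 1.05 CPM in jejunal and 18.9 ± 2.7 CPM in ceco-colonic nodes (log2 fold change -1.58, adjusted p = 6.37e-06). Ccl20, which attracts cells with the receptor Ccr6, averaged 0.31 ± 0.144 CPM in jejunal and 1.92 ± 0.653 CPM in ceco-colonic nodes (log2 fold change -2.64, adjusted p = 3.25e-05). Higher in jejunal nodes were Cxcl14, a stromal chemokine, at 21.3 ± 1.38 CPM against 7.07 ± 1.54 CPM in ceco-colonic nodes (log2 fold change 1.59, adjusted p = 1.59e-05), and Cxcl5, which attracts neutrophils, at 4.16 ± 0.554 CPM against 1.23 ± 0.237 CPM (log2 fold change 1.75, adjusted p = 1.43e-05). Of 21 homeostatic chemokines and receptors tested, 2 were called higher and 5 lower (median -0.1).

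Dendritic cell genes that were called were mostly lower in jejunal nodes. Il12b, the shared subunit of interleukins 12 and 23 made by activated dendritic cells, had 26, 23.4, 35 and 29.3 CPM in jejunal libraries, against 118, 124, 86.3 and 102 CPM in ceco-colonic libraries. The groups did not overlap (log2 fold change -1.92, SE 0.154, adjusted p = 5.92e-08). Il12b averaged 31.4 ± 6.04 CPM in duodenal, 27.2 ± 3.48 in ileal and 48.9 ± 7.79 in inguinal nodes. Of the migratory, mature dendritic cell genes, 6 of 17 tested were called lower and 1 higher (median -0.21). The chemokine Ccl17 averaged 16.8 ± 3.87 CPM in jejunal and 34.6 ± 5.86 CPM in ceco-colonic nodes (log2 fold change -1.05, adjusted p = 0.00222). Its call was lost with the adipocyte covariate (log2 fold change -0.96, adjusted p = 0.0642). Apol7c averaged 2377 ± 358 CPM in jejunal and 1791 ± 55.6 CPM in ceco-colonic nodes, and its call (log2 fold change 0.41, adjusted p = 0.0366) was lost in 7 of the 16 alternatives: with the adipocyte covariate (adjusted p = 0.272), without jejunal library 2 or 4, and without any 1 ceco-colonic library. Most type 1 dendritic cell genes were not called. Clec9a, their receptor for dead cells, averaged 124 ± 18.9 CPM in jejunal and 69.7 ± 7.43 CPM in ceco-colonic nodes (log2 fold change 0.83, adjusted p = 1.65e-05), whereas the uptake receptor Ly75 averaged 73.2 ± 5.49 CPM in jejunal and 126 ± 2.97 CPM in ceco-colonic nodes (log2 fold change -0.78, adjusted p = 1.49e-07). The integrin Itgae averaged 51.3 ± 3.94 CPM in jejunal and 75 ± 6.98 CPM in ceco-colonic nodes (log2 fold change -0.55, adjusted p = 2.24e-04). In all, 1 of 14 type 1 genes was called higher and 3 lower (median -0.21), beside 7.14% and 5.06% over all genes tested.

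Of 15 type 2 dendritic cell genes tested, 5 were called lower and 1 higher (median -0.19), and 2 were called lower without jejunal library 2 and with the adipocyte covariate (3 without ceco-colonic library 4). The lectin Clec10a averaged 25.4 ± 2.61 CPM in jejunal and 53 ± 2.2 CPM in ceco-colonic nodes (log2 fold change -1.06, adjusted p = 2.52e-06). Irf4, a transcription factor these cells need, averaged 28.5 ± 1.43 CPM in jejunal and 48.7 ± 3.93 CPM in ceco-colonic nodes (log2 fold change -0.77, adjusted p = 1.09e-05). The gene called higher was Epcam, an epithelial and Langerhans cell adhesion molecule, at 7.07 ± 0.456 CPM in jejunal and 4.09 ± 0.41 CPM in ceco-colonic nodes (log2 fold change 0.79, adjusted p = 2.41e-06). Of 12 plasmacytoid genes tested 0 were called higher and 2 lower, and of 13 MHC class II presentation genes 1 was called higher and 2 lower (medians 0.12 and -0.05).

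Innate lymphocyte genes went in different directions by type. Type 2 innate lymphoid cells respond to interleukins 25 and 33. Il17rb, the receptor subunit for interleukin 25, had 74.9, 67.8, 70.1 and 75.6 CPM in jejunal libraries, against 28.6, 23.6, 24.3 and 29.2 CPM in ceco-colonic libraries. The difference was many times the spread (log2 fold change 1.45, SE 0.126, adjusted p = 1.59e-07). Il1rl1, the receptor for interleukin 33, averaged 31.7 ± 4.96 CPM in jejunal and 14.3 ± 2.49 CPM in ceco-colonic nodes (log2 fold change 1.15, adjusted p = 1.95e-05). Arg1, the arginase of these cells and of some macrophages, averaged 9.53 ± 2.44 CPM in jejunal and 3.52 ± 0.412 CPM in ceco-colonic nodes (log2 fold change 1.44, adjusted p = 1.90e-06). Of 19 type 2 genes tested, 5 were called higher and 1 lower (median 0.17), with the same counts under the adipocyte covariate, and 8 were called higher without jejunal library 2. Of 18 type 3 innate lymphoid genes tested, 3 were called higher and 1 lower (median -0.01).

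The natural killer and granzyme genes that were called were lower in jejunal nodes. Gzmc, a granzyme, had 2.51, 3.47, 3.6 and 3.36 CPM in jejunal libraries, against 23.2, 21.2, 14.8 and 20.9 CPM in ceco-colonic libraries. All ceco-colonic libraries were higher (log2 fold change -2.63, SE 0.165, adjusted p = 4.59e-09). Ccl5, made by natural killer cells, averaged 535 ± 74.4 CPM in jejunal and 858 ± 59.5 CPM in ceco-colonic nodes (log2 fold change -0.68, adjusted p = 1.29e-04). Eomes, a transcription factor of these cells, averaged 30.0 ± 3.49 CPM in jejunal and 45.1 ± 3.48 CPM in ceco-colonic nodes (log2 fold change -0.59, adjusted p = 1.09e-04). The pore protein Prf1 averaged 26.1 ± 4.26 CPM in jejunal and 38 ± 4.16 CPM in ceco-colonic nodes (log2 fold change -0.54, adjusted p = 0.00591), a call lost with the adipocyte covariate (adjusted p = 0.431). Of 22 genes of this list tested, 10 were called lower and 0 higher (median -0.4), 6 lower without jejunal library 2 or ceco-colonic library 2, and 3 lower with the covariate. Their summed level was 1069 to 1292 CPM in jejunal and 1587 to 1895 CPM in ceco-colonic libraries.

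Eosinophil genes were lower in jejunal nodes in 9 of the 10 genes tested (0 higher, median -1.46), with 5 of them called lower under the adipocyte covariate. Prg2, the major basic protein of the eosinophil granule, had 1.29, 1.05, 0.973 and 0.89 CPM in jejunal libraries, against 4.94, 3.82, 3.08 and 3.24 CPM in ceco-colonic libraries. It did not overlap between the groups (log2 fold change -1.84, SE 0.242, adjusted p = 2.32e-05). Its relative Prg3 averaged 3.77 ± 1.32 CPM in jejunal and 12.9 ± 1.3 CPM in ceco-colonic nodes (log2 fold change -1.77, adjusted p = 8.07e-05). Cebpe, a transcription factor of late granulocyte differentiation, averaged 0.773 ± 0.173 CPM in jejunal and 2.29 ± 0.415 CPM in ceco-colonic nodes (log2 fold change -1.57, adjusted p = 1.32e-04). The eotaxin receptor Ccr3 had 2.32, 0.562, 0.88 and 0.944 CPM in jejunal libraries, against 2.6, 2.66, 5.19 and 5.47 CPM in ceco-colonic libraries, and its call (log2 fold change -1.75, adjusted p = 0.0039) was lost with the covariate (adjusted p = 0.227). The summed level of the list was 27.7 to 45.0 CPM in jejunal and 64.2 to 72.0 CPM in ceco-colonic libraries. Of 18 neutrophil and monocyte genes tested, 4 were called lower and 0 higher (median -0.43). Among them were Cxcr2, a neutrophil chemokine receptor, at 10.7 ± 1.61 CPM in jejunal and 23.6 ± 4.41 CPM in ceco-colonic nodes (log2 fold change -1.14, adjusted p = 4.30e-06), and the monocyte receptor Ccr2, at 94.3 ± 15.1 and 166 ± 24.3 CPM in the same order (log2 fold change -0.82, adjusted p = 2.63e-05). Of 14 mast cell and basophil genes tested, 1 was called higher and 0 lower (median -0.05).

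**Figure D4:**
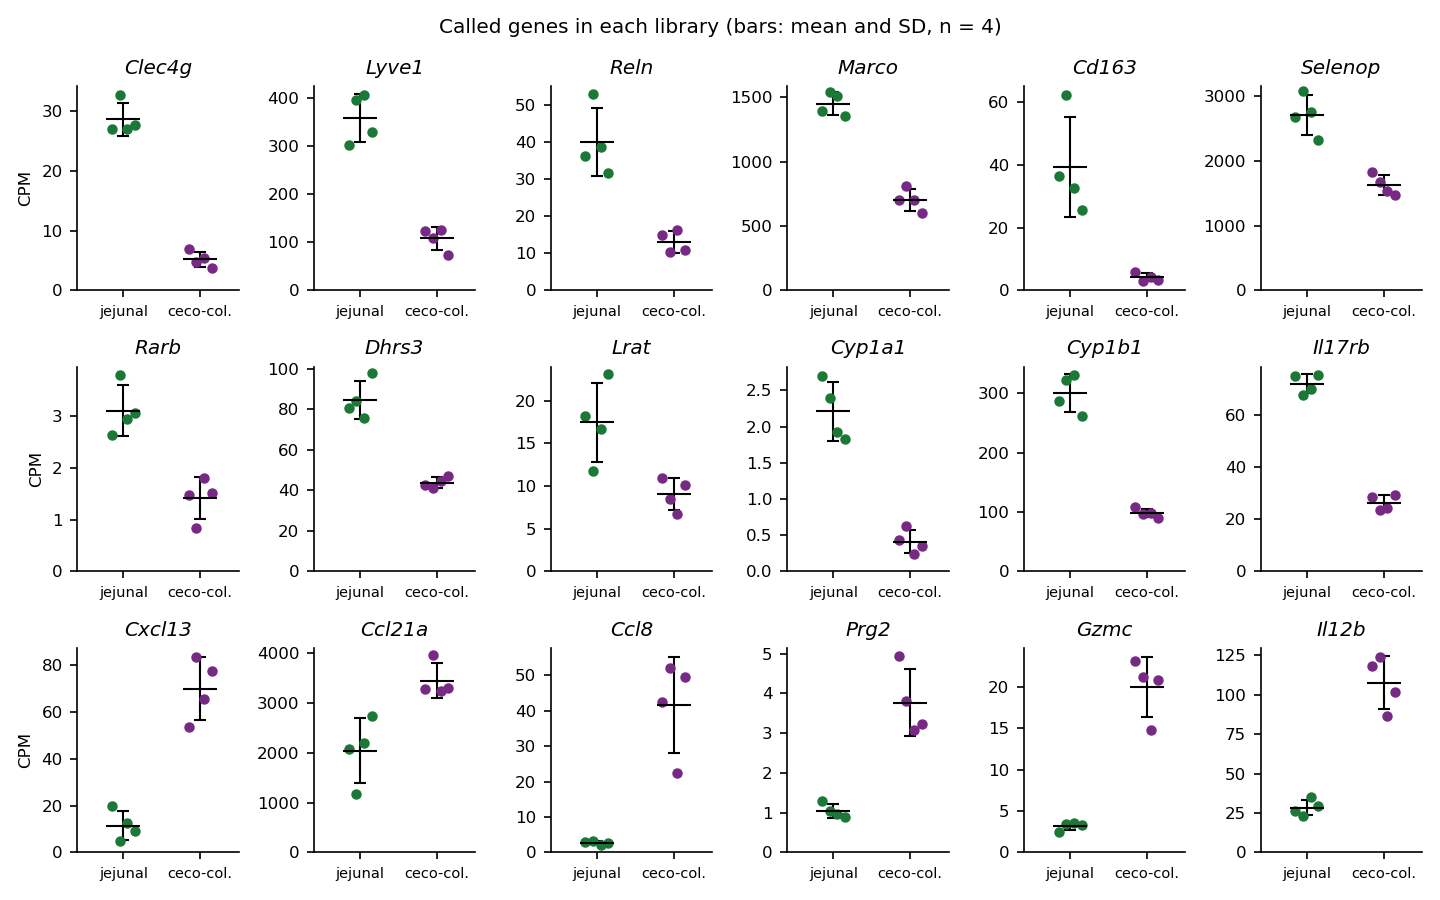
Level in CPM in each of the 4 jejunal (green, left) and 4 ceco-colonic libraries (purple, right) of 18 called genes, with the mean and SD of each group as black bars and axes starting at 0. The libraries of the groups do not overlap in any panel; the first 12 genes are higher in jejunal nodes and the last 6 lower, and the lowest point for Ccl21a in the jejunal group is library 2 at 1172 CPM.

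Of 24 type I interferon response genes tested, 0 were called higher and 0 lower by edgeR, DESeq2 or limma-voom, and 4 had an unadjusted p under 0.05 in edgeR; the median log2 fold change was 0.31 (0.16 without jejunal library 2). Their summed level was 2797 to 4455 CPM in jejunal and 2648 to 3765 CPM in ceco-colonic libraries. Irf7, the amplifier of the response, averaged 618 ± 147 CPM in jejunal and 487 ± 147 CPM in ceco-colonic nodes (log2 fold change 0.34, SE 0.221, adjusted p = 0.405). Of 22 genes induced by interferon gamma, 1 was called higher and 1 lower (median 0.08), and of 24 Toll-like receptor and antimicrobial genes 1 was called higher and 6 lower (median 0.01), with 0 called lower under the adipocyte covariate. Of 31 complement and coagulation genes tested, 7 were called higher and 6 lower (median 0.13). Serpinc1, or antithrombin, averaged 8.69 ± 1.06 CPM in jejunal and 22.8 ± 2.75 CPM in ceco-colonic nodes (log2 fold change -1.39, adjusted p = 1.41e-08), and coagulation factor F5 averaged 1.37 ± 0.435 and 4.18 ± 2.11 CPM in the same order (log2 fold change -1.60, adjusted p = 5.93e-04). Of 15 prostaglandin and leukotriene genes 5 were called higher and 2 lower (median 0.24), of 14 cell division genes 0 higher and 1 lower (median -0.22), and of 20 immediate early and stress genes 2 higher and 1 lower (median -0.02).

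Recombinase genes were not called, and single genes of the T and B lineages were called in both directions. Rag1 had 2.65, 2.75, 2.34 and 2.27 CPM in jejunal libraries, against 2.8, 3.05, 2.19 and 2.74 CPM in ceco-colonic libraries, and was not called (log2 fold change -0.11, SE 0.122, adjusted p = 0.704). Reads can come from parts of the gene outside the change in the allele, and with no intact group these levels check no label. Rag2 averaged 0.448 ± 0.126 CPM in jejunal and 0.363 ± 0.0831 CPM in ceco-colonic nodes (adjusted p = 0.484). Of 16 B-lineage genes tested, 2 were called higher and 1 lower. Ms4a1, or CD20, averaged 2.92 ± 0.237 CPM in jejunal and 1.41 ± 0.242 CPM in ceco-colonic nodes (log2 fold change 1.05, adjusted p = 5.84e-06), and the adaptor Bank1 averaged 18.2 ± 3.43 and 10.2 ± 0.779 CPM in the same order (log2 fold change 0.84, adjusted p = 2.00e-05). Of 20 T-lineage genes, 4 were called higher and 5 lower (median -0.17), with Cd3g at 5.05 ± 0.878 CPM in jejunal and 2.6 ± 0.564 CPM in ceco-colonic nodes (log2 fold change 0.96, adjusted p = 1.81e-04) and Trac at 1.38 ± 0.151 and 2.17 ± 0.185 CPM in the same order (log2 fold change -0.65, adjusted p = 3.28e-04).

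Other large differences lay outside these groups. Tff1, a mucosal trefoil peptide, had 0.136, 0.0197, 0.0714 and 0 CPM in jejunal libraries, against 4.07, 4.05, 2.5 and 3.15 CPM in ceco-colonic libraries. It was close to the counting floor of 0.017 CPM (3 counts) in the jejunal group and had the lowest log2 fold change among the genes named by the rule (-5.76, SE 0.513, adjusted p = 2.17e-07). Its mean was 0.0348 ± 0.0238 CPM in duodenal, 0.091 ± 0.0401 in ileal and 0.0175 ± 0.0101 in inguinal nodes. Aoc1, the diamine oxidase that degrades histamine, averaged 0.383 ± 0.224 CPM in jejunal and 4.73 ± 0.769 CPM in ceco-colonic nodes (log2 fold change -3.64, adjusted p = 1.29e-05). The receptor kinase Alk averaged 0.233 ± 0.12 CPM in jejunal and 2.61 ± 0.426 CPM in ceco-colonic nodes (log2 fold change -3.47, adjusted p = 4.51e-07). The peptidase Ecel1 averaged 0.62 ± 0.217 CPM in jejunal and 3.89 ± 0.127 CPM in ceco-colonic nodes (log2 fold change -2.65, adjusted p = 2.55e-04). Tyr, the tyrosinase of melanin synthesis, had 4.33, 3.78, 4.37 and 4.32 CPM in jejunal libraries, against 0.368, 0.701, 0.346 and 0.217 CPM in ceco-colonic libraries. It was higher in all jejunal libraries (log2 fold change 3.39, SE 0.264, adjusted p = 4.61e-08), with library 2 the lowest of them. Tafa5, a secreted protein, averaged 2.01 ± 0.247 CPM in jejunal and 0.151 ± 0.0286 CPM in ceco-colonic nodes (log2 fold change 3.73, adjusted p = 3.97e-10), and the potassium channel Kcnk3 averaged 24.3 ± 3.6 and 3.45 ± 0.894 CPM in the same order (log2 fold change 2.81, adjusted p = 3.38e-08). Oit3, known from liver sinus endothelium, averaged 2.52 ± 0.287 CPM in jejunal and 0.287 ± 0.106 CPM in ceco-colonic nodes (log2 fold change 3.13, adjusted p = 1.69e-06). Among abundant genes, the actin-severing protein Gsn averaged 828 ± 173 CPM in jejunal and 447 ± 68.1 CPM in ceco-colonic nodes (log2 fold change 0.89, adjusted p = 0.00131), a call lost with the adipocyte covariate (adjusted p = 0.244). The intermediate filament Vim averaged 752 ± 81.6 CPM in jejunal and 1244 ± 35 CPM in ceco-colonic nodes (log2 fold change -0.73, adjusted p = 2.66e-06), and Epsti1 averaged 535 ± 41.9 and 938 ± 80.5 CPM in the same order (log2 fold change -0.81, adjusted p = 8.37e-07).

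Transcripts of tissues that surround a node were present at unequal levels. Of 18 adipocyte genes tested, 12 were called higher and 0 lower in jejunal nodes (median 2.08), 2 higher without jejunal library 2, and 3 higher without ceco-colonic library 2 or 4. Cidec, a lipid droplet protein, had 56.2, 186, 53.1 and 53.9 CPM in jejunal libraries, against 26.1, 4.89, 22.5 and 13.7 CPM in ceco-colonic libraries (log2 fold change 2.38, adjusted p = 0.0452). Car3 had 276, 887, 235 and 234 CPM in jejunal libraries, against 121, 22.6, 85.3 and 52.8 CPM in ceco-colonic libraries (log2 fold change 2.53, adjusted p = 0.0234). Jejunal library 2 was the highest and ceco-colonic library 2 the lowest in both genes, and both calls were lost without either of these libraries (adjusted p = 0.203 and 0.131 for Cidec, 0.124 and 0.0777 for Car3). Without ceco-colonic library 4 both calls were lost too, as was that of Cidec without ceco-colonic library 1 or 3 and with the replicate block (0.056). The adipokine Cfd (log2 fold change 2.36, adjusted p = 0.0177) and the receptor Adrb3 (log2 fold change 2.58, adjusted p = 0.0119) lost the call without jejunal library 2 as well (adjusted p = 0.0977 and 0.103), and Cfd also without ceco-colonic library 2 or 4 (0.0627 and 0.0651). With the adipocyte covariate the calls of Cidec, Car3, Cfd and Adrb3 were all lost (adjusted p = 0.74, 0.964, 0.949 and 0.968). These genes are part of the sum that forms the covariate, so their loss follows from the fit itself. Cyp2e1 and Agt, expressed in fat and liver, averaged 155 ± 97 and 8.94 ± 6.35 CPM in jejunal nodes, against 20.9 ± 13.6 and 0.997 ± 0.608 CPM in ceco-colonic nodes (log2 fold changes 2.89 and 3.16, adjusted p = 0.00121 and 1.71e-04).

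Pancreatic genes summed to 138 CPM in jejunal library 1, 13.2, 10.2 and 11.4 CPM in the other jejunal libraries, and 10.5 to 14 CPM in ceco-colonic libraries, and 0 of 17 tested were called by edgeR, DESeq2 or limma-voom (0 with an unadjusted p under 0.05 in edgeR). Their median log2 fold change was 2.65 with and 0.06 without jejunal library 1. Intestinal epithelial genes summed to 24.2 to 30.2 CPM in jejunal and 20.1 to 21.6 CPM in ceco-colonic libraries, with 5 of 19 tested called higher and 4 lower (median 0.14). Those called higher were Apoa4, Fabp2, Apoa1, Epcam and Lgals4, and the list sum was higher in every jejunal library than in any ceco-colonic library. Among those called lower, Cdh17, an intestinal cadherin, averaged 1.53 ± 0.192 CPM in jejunal and 2.16 ± 0.229 CPM in ceco-colonic nodes (log2 fold change -0.50, adjusted p = 0.00387). That call was lost with the adipocyte covariate (adjusted p = 0.172). Mesothelial genes summed to 18.3 to 33.7 CPM in jejunal and 10.3 to 12.8 CPM in ceco-colonic libraries, and 2 of 12 were called higher and 0 lower (median 1.32, and -0.49 without jejunal library 2). Those were Wt1, at 2.04 ± 0.566 CPM in jejunal and 0.699 ± 0.0713 CPM in ceco-colonic nodes (log2 fold change 1.55, adjusted p = 9.39e-05), and Gpm6a, at 18.7 ± 3.48 and 7.42 ± 1.46 CPM in the same order (log2 fold change 1.34, adjusted p = 1.43e-05). Glial and nerve genes summed to 155 to 174 CPM in jejunal and 186 to 195 CPM in ceco-colonic libraries, with 5 of 15 called higher (3 without jejunal library 2) and 3 lower (median 1.01). The Schwann cell genes Cdh19 and Sox10 were called higher (log2 fold changes 3.30 and 3.02, adjusted p = 0.00153 and 0.00828), and both calls were lost with the adipocyte covariate (adjusted p = 0.288 and 0.6), that of Sox10 also with limma-voom (0.0652). The neuronal filament gene Prph averaged 0.876 ± 0.0389 CPM in jejunal and 2.42 ± 0.355 CPM in ceco-colonic nodes (log2 fold change -1.46, adjusted p = 8.92e-07).

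Smooth muscle genes summed to 585 to 683 CPM in jejunal and 739 to 793 CPM in ceco-colonic libraries, and 1 of 12 was called higher and 2 lower (median -0.19). Synpo2, an actin-binding protein of smooth muscle, had 128, 128, 136 and 132 CPM in jejunal libraries, against 189.6, 181, 179 and 186 CPM in ceco-colonic libraries (log2 fold change -0.49, SE 0.0643, adjusted p = 2.43e-05). All jejunal libraries lay below all ceco-colonic libraries for this gene. Erythroid genes summed to 90.5 to 113 CPM in jejunal and 68.9 to 101 CPM in ceco-colonic libraries, with 0 of 8 called by edgeR, DESeq2 or limma-voom (1 with an unadjusted p under 0.05 in edgeR; median 0.15), and skeletal muscle and keratinocyte genes to 3.54 to 4.44 and 4.04 to 5.02 CPM in the same order, with 1 of 6 called lower (median -0.09). The part of these tissues in the results above was not tested.

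**Figure D5:**
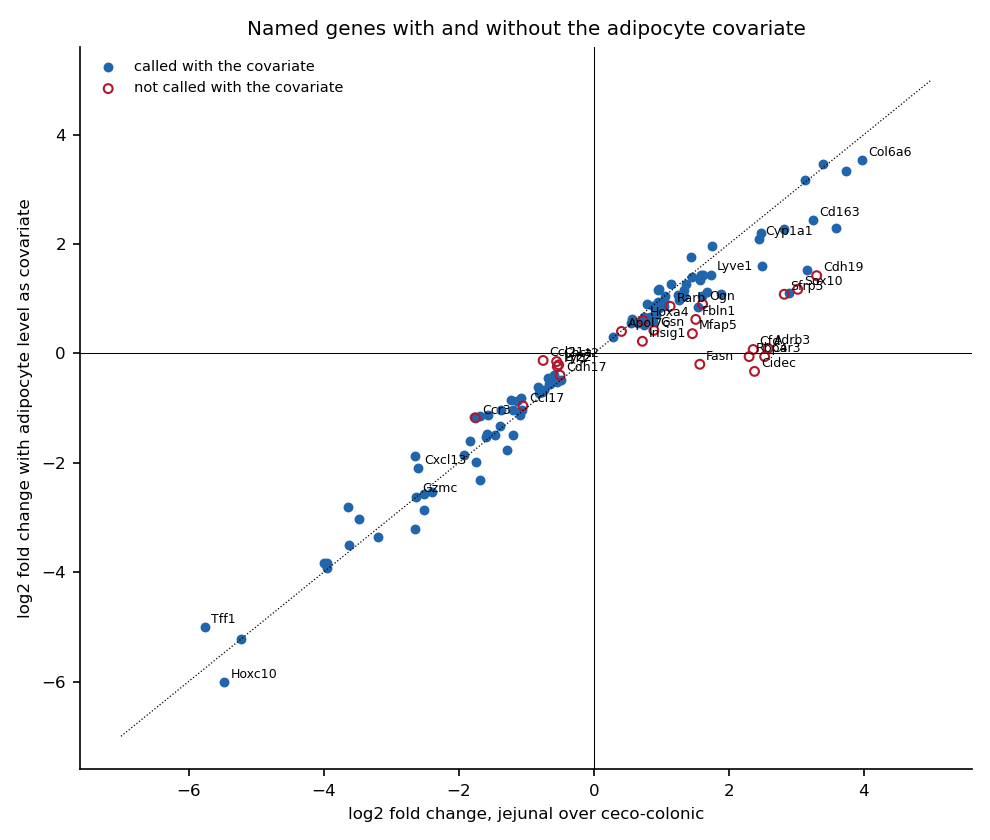
Log2 fold change of jejunal over ceco-colonic nodes of the 122 called genes given values here, without (horizontal axis) and with (vertical axis) the summed adipocyte level of each library as a covariate; filled points were called with the covariate, open red points were not, and the dotted line marks equal values. Most genes lie near the line, among them Hoxc10, Tff1 and Lyve1, and the adipocyte genes Cidec, Car3 and Adrb3 lie near 0 on the vertical axis. These adipocyte genes are part of the sum used as the covariate.

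The genes called between jejunal and ceco-colonic nodes were also counted in the comparison of duodenal with ileal nodes. Its levels come from other libraries, but both comparisons were taken from 1 model with shared dispersions, so their p-values are not independent. Over all genes tested, 1935 (6.58%) were called higher and 2362 (8.03%) lower in duodenal than in ileal nodes. These counts were 1184 and 1387 when only the 8 duodenal and ileal libraries were fitted, and 789 and 831 with the adipocyte covariate. They were 1177 and 1129 without duodenal library 2, 1234 and 1319 without ileal library 3, and 1175 and 1252 without ileal library 4. Pancreatic transcripts were high in 2 of the duodenal libraries. Amy2a5 had 8524, 3852, 2.13 and 6.53 CPM in duodenal libraries 1 to 4, against 1.71 ± 0.148 CPM in ileal nodes (SD). Their part in these counts was not tested. The shares that follow were computed on the fit of all 20 libraries alone. Of the 2099 genes higher in jejunal nodes, 212 (10.1%) were higher and 504 (24%) lower in duodenal nodes. Of the 1487 genes lower in jejunal nodes, 132 (8.88%) were higher and 261 (17.6%) lower in duodenal nodes. The adipocyte genes Cfd and Adrb3 were lower in duodenal than in ileal nodes (log2 fold changes -2.08 and -2.10, adjusted p = 0.0334 and 0.0357). Cidec and Car3 were not called there (-2.10 and -1.80, adjusted p = 0.0661 and 0.0891). The part of fat in these shares was not tested. Hoxc10, Hoxa10, Hoxa9, Irx1 and Ccl20 were among the genes lower on the proximal side in both comparisons, with log2 fold changes of duodenal over ileal nodes of -5.49, -2.68, -2.29, -1.13 and -2.33 (adjusted p = 4.75e-06, 2.83e-07, 1.11e-07, 0.00586 and 6.81e-04). Lyve1 and Marco, higher in jejunal than in ceco-colonic nodes, were lower in duodenal than in ileal nodes (log2 fold changes -0.96 and -0.69, adjusted p = 0.00197 and 0.00189). Rspo3 and Arg1 were higher in both (0.65 and 0.63, adjusted p = 5.52e-04 and 0.00898). Col6a6, Il12b and Il17rb were called between jejunal and ceco-colonic nodes and not between duodenal and ileal nodes (log2 fold changes -0.23, 0.21 and 0.15, adjusted p = 0.404, 0.381 and 0.434), and whether the differences themselves differ was not tested.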

How the data were processed

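Bulk polyA RNA of whole nodes was measured in 20 libraries, 4 for each of 5 positions. The submitters' processing notes list kallisto, edgeR and limma without versions, and both GRCm39 and mm10 without roles. The authors deposited a gene table of expected counts (estimated counts) for 56258 genes, 135 without a symbol; the deposited transcript tables hold estimated counts and TPM, which were summed per gene. All value columns belonged to a labelled library.

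Counts were rounded, and edgeR 4.0.16 under R 4.3.3 tested them following filterByExpr (minimum count 10, minimum total 15) and TMM scaling, which left 29411 genes. All 20 libraries entered one quasi-likelihood model, from which every contrast was taken, and SE is the absolute log2 fold change over the root of F. Estimated counts per library were 176 to 305 M in jejunal and 171 to 273 M in ceco-colonic nodes; SD is over libraries. The procedure was tested on simulated counts with changes set at known genes. It called 34% of 100 genes changed 1.5-fold and 62% of 100 changed 2-fold, and 2.04% of its calls were false. Only these of the 29003 genes run were changed, far fewer than the 3586 called in the data. Counts were drawn gene by gene, without a shift of a whole library such as that of the adipocyte genes. These rates therefore need not hold for the comparison reported. A gene not called may still differ.

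The deviations of same-numbered libraries correlated at 0.252 for number 1, above the bound of 0.1, and at -0.086, -0.003 and 0.085 for the others, below it. Some differently numbered libraries also passed it, such as jejunal 4 with ceco-colonic 3 at 0.169. The bound therefore cannot decide whether numbers mark pairs. Since not every same-numbered pair passed, numbers were not used as pairs. Alternatives were no filter, DESeq2 1.42.0 and its size factors alone, limma-voom (limma 3.58.1), the 8 libraries alone, a replicate block, counts summed from transcripts, the adipocyte covariate (log2 of the summed level) and leaving out each of the 8 libraries.

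The 50 gene lists (831 genes, 827 in the table), the members and the tests were chosen with earlier results of these data known. Some genes, such as Dhrs3, Lyve1, Marco, Madcam1, Ccl5 and Cfd, stand on more than 1 list, so the counts of different lists can share genes. Genes were named by a rule: fixed genes; the 15 highest and 15 lowest called fold changes and the 6 largest gains and losses in CPM, without overlap and with at least 2 CPM in the higher group; and up to 4 called members per list with at least 1 CPM, or 2 where none was called. It named 198, of which 128 are given values in jejunal and ceco-colonic nodes, chosen for the biology. Amy2a5 is given for duodenal and ileal nodes only. Hox, lymphatic, retinoid and intestinal epithelial genes named without values, among them Cyp26a1, were chosen after their values were seen. Promoters came from the RefSeq table (GRCm38.p6). Counts of near-identical genes (the Ccl21, Cd209, Apol7, granzyme, lysozyme and Prg families) cannot be told apart with certainty, nor can overlapping or antisense genes, since no source used here says whether strand entered the counting.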

Additional observations from a re-analysis of the deposited data

Results flagged for a closer look

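In 22 of 282 groups of 4 libraries (128 genes and 13 list sums, each in both nodes), 1 library lay farther from the others than Dixon's 95% critical value for 4 samples allows; chance flags about 1 in 20 groups. Jejunal library 2 accounted for 16 of the 22. In that library the adipocyte sum was 3835 CPM against 1275 to 1429.5 CPM in the other jejunal libraries, and Cidec was at 186 CPM against 53.1 to 56.2, Cfd at 742 against 215 to 266, Car3 at 887 against 234 to 276, Adrb3 at 50.1 against 7.34 to 12, and Rbp4 at 19.7 against 5.69 to 6.97 CPM. Sox10 was at 4.35 CPM against 0.956 to 1.4, Insig1 at 59.7 against 40.3 to 41.6, Cd209f at 13.7 against 6.74 to 7.23, Clec4g at 32.7 against 27 to 27.6, Hoxc8 at 14.2 against 10.9 to 11.4 and Col6a6 at 47.1 against 28.5 to 31.5 CPM. The same library was the lowest for Grem1 (45.8 CPM against 83.7 to 88), Madcam1 (33.3 against 53 to 55.6), Lyz2 (1172 against 1939 to 2018) and Tyr (3.78 against 4.32 to 4.37).

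In jejunal library 1, the pancreatic sum was 138 CPM against 10.2 to 13.2 CPM in the others of its group, and F5 was at 2.02 CPM against 1.13 to 1.19. Epsti1 was at 598 CPM in jejunal library 4 against 511 to 516 CPM in the others. Among ceco-colonic libraries, Ccl21a was at 3959.6 CPM in library 2 against 3233 to 3303, Ccl17 at 25.9 CPM in library 3 against 37.1 to 38.2, and the eosinophil sum at 72 CPM in library 1 against 64.2 to 65.3 CPM.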

How the results depend on the processing

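With the adipocyte sum as a covariate, 759 genes were called higher and 568 lower in jejunal than in ceco-colonic nodes, 253 of them at least 2-fold higher, and 1219 calls were shared with the reported ones in the same direction. In the comparison of duodenal with ileal nodes, 789 genes were called higher and 831 lower with the covariate, and 1184 and 1387 when only the 8 libraries of that comparison were fitted. Leaving out 1 library gave 1175 to 2195 genes higher and 1129 to 2219 lower in duodenal nodes. Leaving out 1 library gave 1548 to 2177 genes higher and 1117 to 1653 lower in jejunal nodes. A replicate block called 2364 genes higher and 1862 lower in jejunal nodes, with 3512 calls shared; the numbers were not taken to pair the libraries. DESeq2 shared 3580 calls and size factors of its type 3523. Signs changed with the covariate for Rbp4 (-0.06), Fasn (-0.20), Cidec (-0.33), Car3 (-0.06) and Aldh1a2 (-0.12). Cidec and Car3 are part of the sum that forms the covariate. Aldh1a2 also changed sign without ceco-colonic library 3 (-0.02), without jejunal library 2 (-0.01) and without jejunal library 4 (-0.08). It kept its sign without jejunal library 3 (0.10). Nkx2-3 changed sign without jejunal library 3 (0.02). The causes of these changes were not tested. At the depth of these libraries, genes near the floor of 3 counts (0.017 CPM in jejunal and 0.0175 CPM in ceco-colonic nodes), such as Tff1, carry counting error beyond the spread shown.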
